A study of Mus musculus with 17 samples.

Results

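The comparison described here is the effect of 4-hydroxytamoxifen (4OHT) on new RNA in cells given PP1, an inhibitor aimed at their altered ERK2 kinase. How far PP1 blocked ERK2 was not measured in these libraries. It rests on 6 of the series' 17 libraries, 3 from cells given PP1 and 4OHT and 3 from cells given PP1 alone, with clones a, b and c once in each group. The deposited column read as PP1 alone, clone c, carries an extra letter before the clone letter, whose meaning the labels do not give. Libraries were chosen by their treatment label and compared within clones. The cell line was E14tg2a, mouse embryonic stem cells with a 129SV background. Their own ERK1 and ERK2 genes had been knocked out, and a cDNA for FLAG-ERK2 Q103A took their place. A stably expressed cRAF-ErT2 cassette, a RAF kinase that 4OHT switches on, was present in every group, controls included. The cells had been grown with serum, LIF and 2 µM Chir99021, an inhibitor of GSK3, and were then moved for 24 h to medium with serum, LIF and the FGF receptor inhibitor PD173074 at 250 nM. PP1 was used at 2 µM and 4OHT at 250 nM for 2 h. Ethynyl uridine at 5 mM was added for the last 15 minutes, and the RNA that took it up was captured and sequenced. The other groups, given where a result needs them, were DMSO (n = 2, clones b and c), 4OHT alone, a MEK inhibitor at 1 µM (MEKi), and MEKi with 4OHT (n = 3 each). The labels do not state clearly how long PP1 alone was present, or what promoters drive the cDNA and the cassette.

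RAF phosphorylates MEK, MEK phosphorylates ERK, and active ERK enters the nucleus and phosphorylates transcription factors of the ETS family and partners of SRF. The first genes to answer are the immediate early genes, and among the next are phosphatases and Sprouty proteins that damp the same pathway. In mouse embryonic stem cells ERK signalling opposes the naive state and is needed for primitive endoderm. PP1 blocks Src family kinases and is also used against kinases whose gatekeeper, a bulky residue in the ATP pocket, has been replaced by a small one.

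The 6 libraries held 5239690 to 9808333 counts, the smallest being PP1 clone a, in which a set of 14 high-count loci took 42% of the counts against 10.9% to 21.7% in the other 5. On the first principal component of all 17 libraries (50% of the variance) the PP1 and 4OHT libraries lay at 16.6 to 18.6, between PP1 alone (-26.7 to -24) and 4OHT alone (73.1 to 84). The 8 embryonic stem cell markers summed to 2860 to 3260 counts per 1e6 counts (CPM) with PP1 and 3270 to 3470 with PP1 and 4OHT. Markers of primitive endoderm, trophoblast, mesoderm, neuroectoderm, fibroblasts and 2-cell-like cells each summed to at most 15.8 CPM in any of the 6 libraries, and Neurog2 was at 0 in all 6. In these bulk libraries, fewer cells of a type and less RNA per cell cannot be told apart. CPM values are scaled by the trimmed mean of M values (TMM), fold changes are log2 values from edgeR's quasi-likelihood fit with their SE, and calls were made where the p adjusted by Benjamini-Hochberg was under 0.05. The replicates are 3 clones of 1 line, so p-values do not reach beyond these clones. They rest on the spread left between libraries after group and clone, estimated over all 17 libraries.

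With PP1 present, 4OHT still raised new RNA of ERK feedback genes and immediate early genes. Egr1 rose 29.8-fold and Spry4 16.8-fold. Of 14907 genes tested, 3059 rose (20.5%) and 2259 fell (15.2%). At least 2-fold changes were fewer, 159 rises (1.07%) and 633 falls (4.25%), or 213 and 305 with library totals as the only scaling (41.1% higher, against 20.1%) and 83 and 185 among genes with an average log2 CPM of 3 or more. The same agent without inhibitor gave 3958 rises (26.6%) and 4074 falls (27.3%), and with MEKi it gave 1457 rises (9.77%) and 1310 falls (8.79%). Of the rises with PP1, 98% went the same way in each of the 3 clones, and of the falls 95.7%. The calls were made from these same clones, which by itself makes such shares high, so they are not a separate replication. The counts depend on scaling and on the clones used: with library totals as the only scaling, which moved the median of all genes to 0.12 (log2), 1859 rose and 623 fell (74.9% of calls higher, against 57.5%). With the 6 libraries alone 47.6% of 4220 calls were higher, and without clone b or clone c there were 3339 and 3394 calls in all. Neither of the other responses shares a library with the PP1 response, although they share the clones.

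Genes with large responses to 4OHT without inhibitor were set beside their responses with PP1. Of the 951 genes that rose at least 2-fold without inhibitor (6.38%), 460 rose with PP1, 30 fell and 461 were not called, and their median log2 change was 0.40 against 1.53 without inhibitor and 0.01 with MEKi. The test of the difference between both responses (an interaction term) called a smaller or opposite response with PP1 for 747 of them, a larger one for 2, and called neither for 202. Of the 1816 genes that fell at least 2-fold without inhibitor (12.2%), 933 fell with PP1 and 8 rose. Their median was -0.56 with PP1 and -1.45 without inhibitor, and the interaction called 1039 as smaller or opposite and 0 as larger. These medians and interaction counts are of genes chosen by the response without inhibitor, which by itself makes that response the larger one. Chosen instead by the PP1 response, the 3059 rises included 692 with a called smaller or opposite response than without inhibitor and 420 with a larger one, and the 2259 falls 706 and 192. Over all genes, the PP1 response was higher than the uninhibited one in 2489 (16.7%) and lower in 1834 (12.3%), a split of 57.6% higher. That split depended on the processing. It was 89.2% with library totals, 50.4% with DESeq2 size factors, 48.5% with DESeq2 and 47.3% without clone b of both PP1 groups. Against the MEKi response the PP1 response was higher in 1319 (8.85%) and lower in 923 (6.19%), or 272 and 252 with library totals. Across the 14907 genes the PP1 response had a Pearson's r of 0.495 with the uninhibited response and 0.258 with the MEKi response, which describes genes that are not independent replicates.

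**Figure D1:**
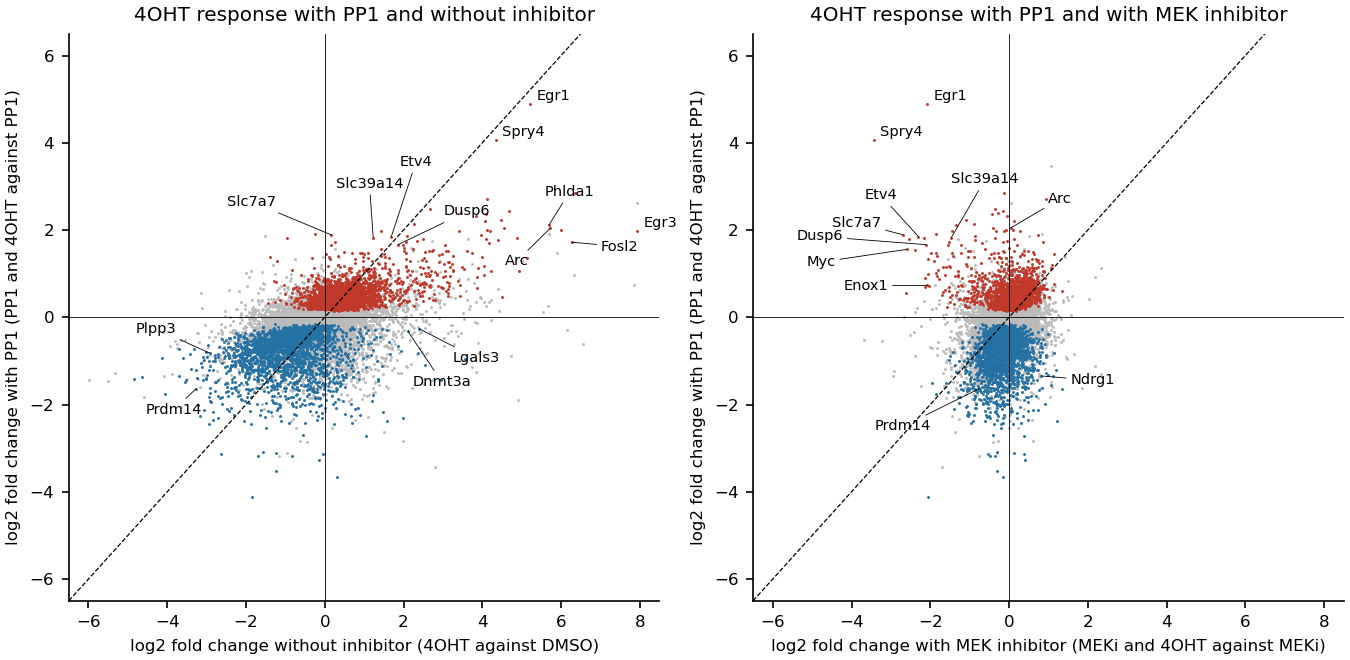
Each point is 1 of 14907 genes. The y axis is its log2 fold change for 4OHT with PP1 and the x axis the same without inhibitor (left) or with the MEK inhibitor (right). Red genes rose and blue genes fell with PP1 (adjusted p under 0.05), grey genes were not called, and the dashed line marks equal responses. Egr1, Spry4, Dusp6 and Etv4 lie close to the dashed line on the left and have the opposite sign on the right, while Arc, Phlda1, Egr3 and Fosl2 lie far under the line on the left.

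With PP1, 20.5% of all genes tested rose and 15.2% fell, shares that also stand beside the list counts below. Among the 21 tested feedback inhibitors of ERK signalling, 11 rose and 3 fell, with a median log2 change of 0.48 against 0.00 over all genes tested. Without inhibitor 13 rose and 2 fell, and with MEKi 2 rose and 8 fell. Spry4, a Sprouty protein that damps receptor signalling to ERK (mm10, chromosome 18, 38586247 to 38601415), stood at 50.3, 41.9 and 47.3 CPM with PP1 and at 837, 730 and 758 with PP1 and 4OHT. The groups did not overlap, and the change was 4.07 ± 0.10 (adjusted p = 2e-19). Its change without inhibitor was 4.34, and the difference of -0.27 (95% interval -0.57 to 0.02, adjusted p = 0.12) was not called, but it was without 4OHT clone a (adjusted p = 0.033). With MEKi the same gene fell by 3.44 on the log2 scale.

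Dusp6, the cytoplasmic phosphatase that removes phosphate from ERK (chromosome 10, 99263231 to 99267489), was at 50.3, 49.1 and 47.7 CPM with PP1 and 153, 149 and 162 with PP1 and 4OHT. The change was 1.67 ± 0.10 (adjusted p = 2.5e-11), against 1.86 without inhibitor (difference -0.20, 95% interval -0.53 to 0.13, adjusted p = 0.34) and -2.12 with MEKi. Il17rd, a membrane inhibitor of the pathway also called Sef, was at 87.0, 92.0 and 94.0 CPM and rose to 211, 213 and 225. Its change of 1.25 ± 0.07 was larger than the 0.77 seen without inhibitor (interaction adjusted p = 0.0012, lost without DMSO clone c at 0.053). Spred1 (1.17 ± 0.08), Spry2 (0.72 ± 0.08) and Spred3 (1.01 ± 0.20) also rose with PP1 and fell with MEKi.

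For Dusp5, Dusp4 and Dusp1, phosphatases of the nucleus, the interaction was called. Whether location in the cell goes with the interaction was not tested. Dusp5, which binds and inactivates ERK in the nucleus, was at 5.36, 6.17 and 6.13 CPM with PP1 and 23.5, 25.1 and 24.9 with PP1 and 4OHT. That rise of 2.05 ± 0.13 (adjusted p = 3.1e-11) was far under the 4.55 without inhibitor (interaction adjusted p = 6e-10). Dusp4 rose by 1.53 ± 0.13 against 2.72, and Dusp1 by 0.79 ± 0.13 against 2.46, each with a called interaction (adjusted p = 4e-05 and 1.7e-07). Among the list's 3 falls, Dusp14 fell by 0.56 on the log2 scale with PP1 (adjusted p = 0.021) and rose by 1.63 without it. Its call was lost under several alternatives, among them no replicate block (adjusted p = 0.062) and leaving out PP1 clone c (0.23) or PP1 and 4OHT clones a (0.081) or c (0.052).

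Of 37 tested immediate early genes, 25 rose and 4 fell with PP1 (median 0.74), against 30 and 3 without inhibitor (median 1.56) and 5 and 6 with MEKi (median 0.03). Egr1, a zinc finger factor and a standard marker of ERK activity (chromosome 18, 34859823 to 34864984), was at 8.17, 5.08 and 5.51 CPM with PP1 and 181, 181 and 166 with PP1 and 4OHT. The groups were far apart, and the change was 4.90 ± 0.18 (adjusted p = 4.8e-11). Without inhibitor the change was 5.21 (difference -0.32, 95% interval -0.88 to 0.25, adjusted p = 0.38). The level reached was not alike: the mean was 176 ± 8.37 CPM (SD, n = 3) with PP1 and 4OHT and 1850 ± 47.5 (SD, n = 3) with 4OHT alone, from 6.25 ± 1.67 (SD, n = 3) with PP1 and 49.2 ± 11.2 (SD, n = 2) with DMSO. Myc, a growth factor-induced transcription factor, rose by 1.56 ± 0.16 from a mean of 16 to 45.9 CPM. It rose by 1.43 without inhibitor (interaction adjusted p = 0.72) and fell by 2.60 with MEKi.

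Fos, Fosl1 and Fosl2, partners of JUN in AP-1, rose by a smaller fold with PP1 than without it. Fos was at 1.79, 3.19 and 3.31 CPM with PP1 and 10.8, 11.7 and 13.4 with PP1 and 4OHT, a rise of 2.00 ± 0.23 (adjusted p = 6.1e-07) against 4.11 without inhibitor (interaction adjusted p = 3.1e-05). Fosl2 reached 13.1, 11.2 and 7.81 CPM from 4.59, 3.19 and 2.57, a rise of 1.72 ± 0.23 against 6.27 (interaction adjusted p = 3.4e-09). Fosl1 rose by 1.14 ± 0.16 against 3.89, and Junb by 1.27 ± 0.13 against 3.16 (interaction adjusted p = 2.9e-09 and 2.9e-08). Jun itself had values of 12.5, 11.5 and 13.8 CPM with PP1 and 8.62, 12.4 and 9.40 with PP1 and 4OHT, groups that overlap (-0.28 ± 0.16, adjusted p = 0.17), while it rose by 1.60 without inhibitor. Fosb and Egr3 stayed under 2 CPM in the 6 libraries, and the call of Egr3 (1.97 ± 0.60, adjusted p = 0.013) was lost with DESeq2 (adjusted p = 0.057) and without PP1 clone b (0.069), PP1 clone c (0.055) or PP1 and 4OHT clone a (0.058). Without inhibitor Egr3 rose by 7.93, to a mean of 92.0 CPM.

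Other early genes showed the same order. Nab2, which binds and represses EGR factors and whose exons overlap those of Nemp1 and Stat6, went from 17.4, 14.5 and 13.7 CPM to 67.6, 66.6 and 70.6, a rise of 2.20 ± 0.12 against 4.08. Maff, Nab1, Plk3, Nr4a1 and Klf10 rose by 1.53, 1.79, 1.66, 1.30 and 0.74 against 2.65, 4.11, 3.04, 2.58 and 3.43, and each interaction was called. The 4 early genes that fell were Atf3 (-1.16 ± 0.24), Mycn (-0.70 ± 0.10), Klf2 (-0.53 ± 0.18) and Ctgf (-0.46 ± 0.10), of which Ctgf (adjusted p = 0.12) and Klf2 (0.063) were not called with library totals. Klf2 also lost its call without PP1 clone a (0.11) or PP1 and 4OHT clones a (0.14) or b (0.13). The signed difference, the PP1 response minus the uninhibited one, was called lower for 22 of the 37 and higher for 2.

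**Figure D2:**
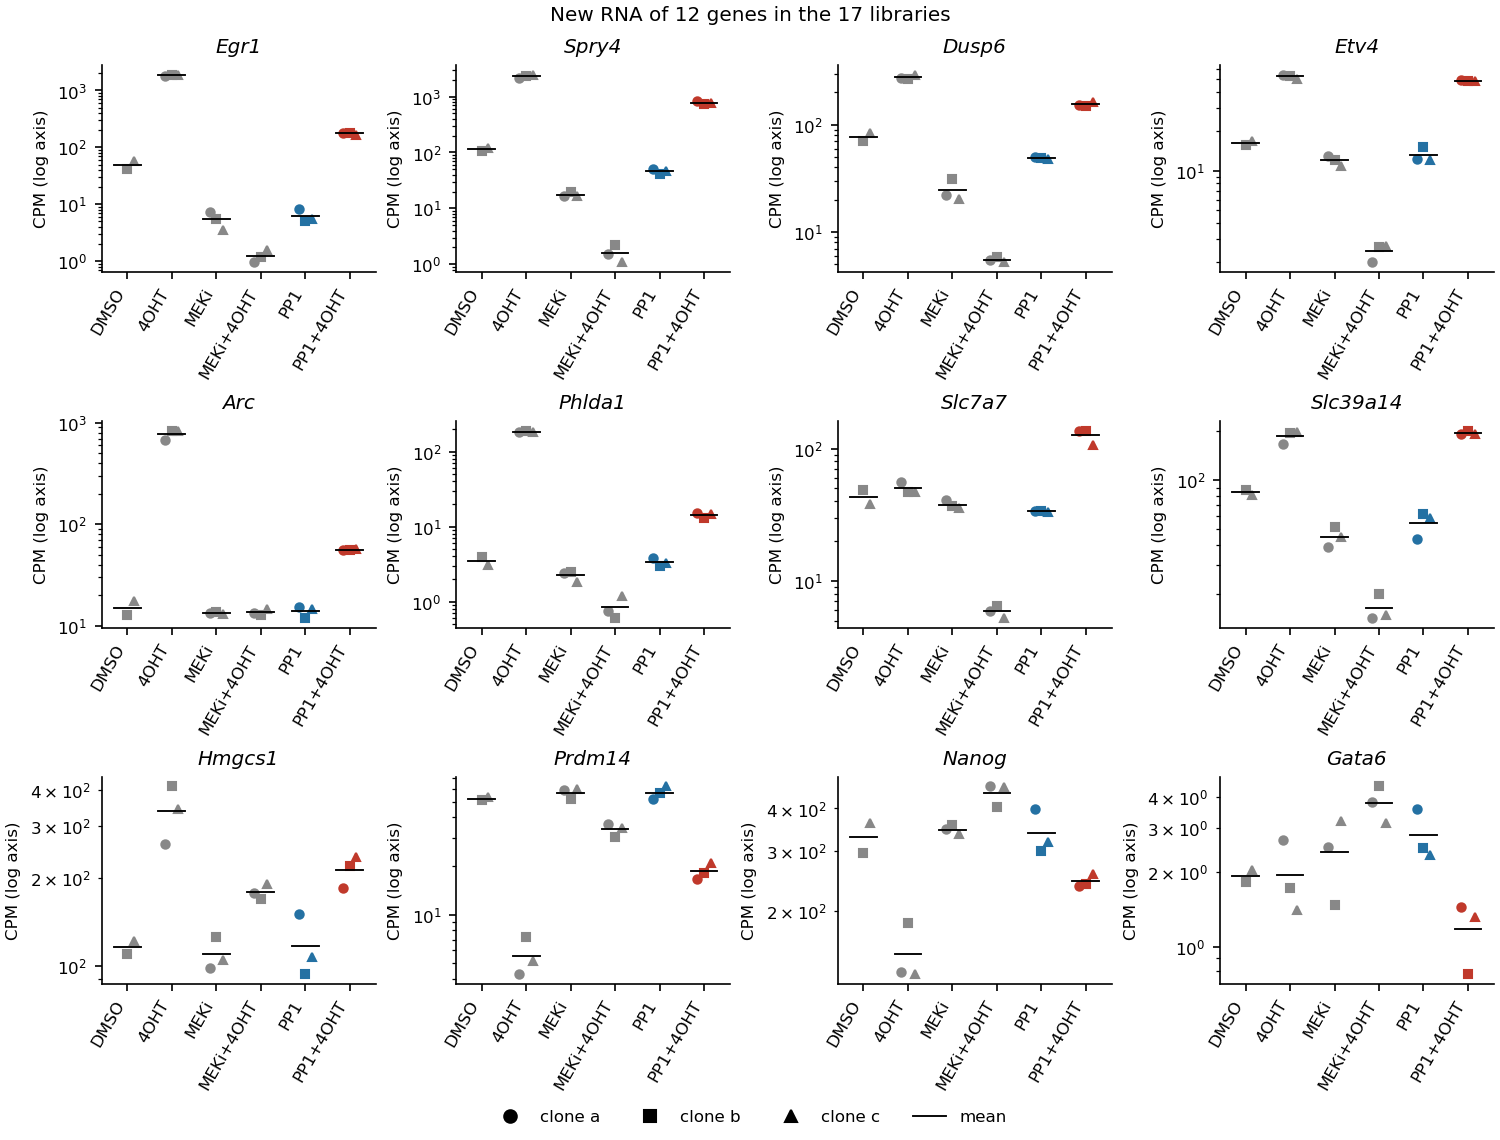
Levels of 12 genes in each library, in CPM on log axes, by treatment (x axis). Symbols mark the clones and bars the group means, with PP1 in blue and PP1 with 4OHT in red. Egr1 is higher with PP1 and 4OHT than with PP1 in every clone but stays under 4OHT alone, and Slc7a7 is highest with PP1 and 4OHT.

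Of 18 tested ETS factors and targets, 10 rose and 2 fell (median 0.22), against 12 and 4 without inhibitor and 3 and 6 with MEKi. Etv4, an ETS factor of the PEA3 group, was at 12.3, 15.2 and 12.1 CPM with PP1 and 49.1, 48.1 and 48.1 with PP1 and 4OHT. The rise of 1.85 ± 0.11 (adjusted p = 1.7e-11) differed from the 1.69 without inhibitor by 0.16 (95% interval -0.22 to 0.53, adjusted p = 0.51), and the gene fell by 2.30 with MEKi. Its relatives Etv1 (0.70 ± 0.10) and Etv5 (0.41 ± 0.07) rose as well and fell by 2.12 and 0.92 with MEKi. Arc, a synaptic immediate early gene, was at 15.1, 11.8 and 14.6 CPM and rose to 55.1, 55.1 and 56.4, which was 2.05 ± 0.11 with PP1 against 5.73 without it (interaction adjusted p = 7e-14). Phlda1 rose by 2.11 ± 0.16 against 5.69 (interaction adjusted p = 2.2e-10).

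Of 15 tested growth factor ligands and related surface genes, 6 rose and 3 fell, where 20.5% and 15.2% of all genes did. Plaur, the urokinase receptor, was at 28.1, 40.6 and 31.7 CPM with PP1 and 205, 190 and 155 with PP1 and 4OHT. Its rise of 2.43 ± 0.10 (adjusted p = 2.1e-13) was under the 4.67 without inhibitor (interaction adjusted p = 3e-10). Hbegf, a ligand of the EGF receptor, rose by 1.98 ± 0.10, from a mean of 26.3 to 106 CPM, against 4.21. Bmp4 rose by 1.72 ± 0.16 with PP1 and 2.06 without inhibitor (interaction adjusted p = 0.31) and fell by 1.51 with MEKi, while Fgf4, the ligand that stem cells make for their own ERK signalling, fell by 0.38 on the log2 scale (adjusted p = 9e-04, and 0.22 with library totals). Strand was not known for the counts, so reads of genes whose exons overlap another gene cannot be told apart from its reads, which applies to Spred3, Dusp1, Fosl1, Junb, Plk3, Bmp4, Ndrg1, Col4a1, Idi1, Sqstm1 and Slc25a21.

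Promoters were read from RefSeq (GRCm38.p6), as 250 bases before to 50 bases after each start, with 393 of the 523 named or listed genes matched. Each of the 3 below belongs to a gene that rose and holds a motif of a factor that ERK signalling is known to act on. In Dusp5 (chr19:53528895-53529194, plus strand) and Srf (chr17:46556113-46556412, minus strand) the capitals mark CArG boxes, the element bound by SRF, found 82 and 72 bases before the start of Dusp5 and 82 and 62 before that of Srf. In Plaur (chr7:24462233-24462532, plus strand) they mark an AP-1 motif 69 bases before the start. Sequences run from 5′ to 3′ on the gene's strand.
Dusp5: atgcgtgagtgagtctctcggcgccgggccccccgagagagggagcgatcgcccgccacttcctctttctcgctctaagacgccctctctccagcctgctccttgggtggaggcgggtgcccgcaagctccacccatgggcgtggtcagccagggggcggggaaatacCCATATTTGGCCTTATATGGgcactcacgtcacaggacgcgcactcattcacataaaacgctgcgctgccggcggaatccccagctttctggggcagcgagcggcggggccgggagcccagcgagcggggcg
Srf: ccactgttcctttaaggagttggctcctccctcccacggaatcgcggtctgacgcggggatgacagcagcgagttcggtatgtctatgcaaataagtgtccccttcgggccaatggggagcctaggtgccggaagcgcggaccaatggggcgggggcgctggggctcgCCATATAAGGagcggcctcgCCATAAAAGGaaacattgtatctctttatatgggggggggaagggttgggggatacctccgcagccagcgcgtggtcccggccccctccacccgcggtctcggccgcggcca
Plaur: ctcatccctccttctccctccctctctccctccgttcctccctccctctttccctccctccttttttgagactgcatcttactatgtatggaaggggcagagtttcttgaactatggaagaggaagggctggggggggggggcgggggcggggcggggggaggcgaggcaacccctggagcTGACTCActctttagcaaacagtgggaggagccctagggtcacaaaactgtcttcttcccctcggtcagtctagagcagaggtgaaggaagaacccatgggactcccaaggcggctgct
Srf itself rose by 0.65 ± 0.19 (adjusted p = 0.0088), from 19.4, 11.7 and 12 CPM to 18.3, 23.6 and 22.1, groups that overlap, and its call was lost without PP1 clone b (adjusted p = 0.11), PP1 clone c (0.076) or PP1 and 4OHT clone b (0.08). Searched on both strands, CArG boxes were in 1.63% of all 32851 promoters, 1.33% of promoters of tested genes, 1.29% of those of genes that rose with PP1 and 1.28% of those that fell. The AP-1 motif TGANTCA was in 7.81%, 5.36%, 4.08% and 6.07%. The ETS motif CCGGAAGT was in 3.89%, 7.11%, 11.5% and 2.64%, and in 3.29% of those of genes that rose at least 2-fold. The CRE motif TGACGTCA was in 1.79%, 2.79%, 3.42% and 2.38%. These shares are a description, with no test, and genes that rose and fell also differed in level (median average log2 CPM 5.83 and 4.03).

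**Figure D3:**
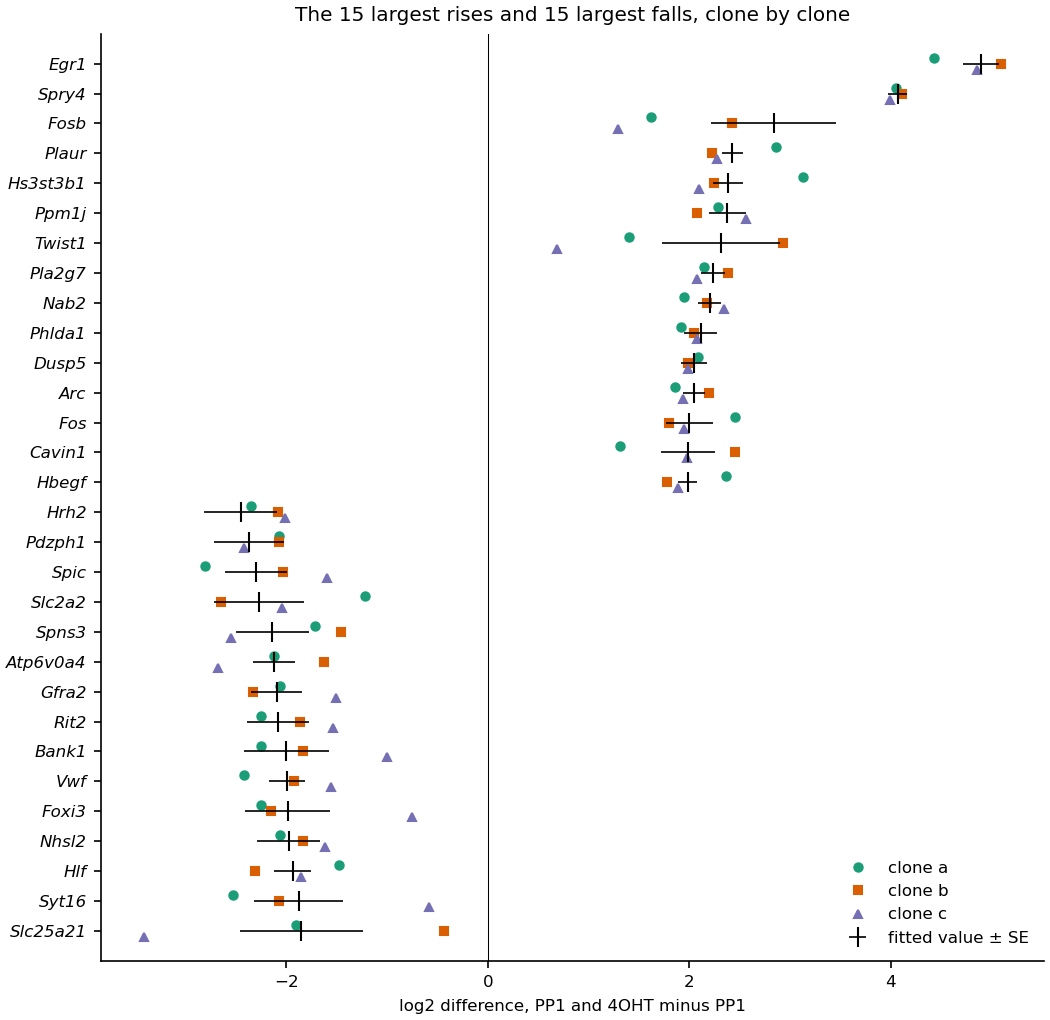
Log2 difference between PP1 with 4OHT and PP1 in each clone for the 15 largest rises and the 15 largest falls among called genes that moved the same way in 3 clones and have an informative symbol and an average log2 CPM no lower than 1. Symbols mark clones, and the black ticks and bars are the fitted value ± SE. Egr1 and Spry4 stand apart at 4.90 and 4.07, and the falls of Slc25a21 and Syt16 vary most between clones.

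Some named genes were called in opposite directions with PP1 and with MEKi. Those given here were named because the difference between these responses had among the smallest adjusted p. Slc7a7, an amino acid transporter subunit whose exons overlap those of Oxa1l, was at 33.9, 33.9 and 33.4 CPM with PP1 and 137, 135 and 107 with PP1 and 4OHT. The rise of 1.89 ± 0.09 (adjusted p = 2.1e-13) contrasts with 0.16 without inhibitor (adjusted p = 0.18, interaction adjusted p = 7.4e-10) and with a fall of 2.69 on the log2 scale with MEKi. Slc39a14, a zinc and iron transporter, went from 43.4, 62.1 and 58.6 CPM to 191, 202 and 191, a rise of 1.83 ± 0.09. Its mean was 194 ± 6.35 CPM (SD, n = 3) with PP1 and 4OHT and 186 ± 15.8 (SD, n = 3) with 4OHT alone, and it fell by 1.47 on the log2 scale with MEKi. Enox1 and Adam23 rose by 0.73 ± 0.07 and 0.87 ± 0.07 and fell by 2.09 and 1.77 with MEKi. The reverse held for Ndrg1, a stress-linked gene, which fell from 31.4, 28.3 and 27.2 CPM to 10.9, 12 and 11.1 with PP1 (-1.34 ± 0.11) and rose by 0.81 with MEKi. Of the 3059 rises with PP1, 779 also rose with MEKi (25.5%, beside 9.77% of all genes), and of the 2259 falls 456 also fell (20.2%, beside 8.79%). Calls in the opposite direction with MEKi were made for 281 of the 3059 rises, where 8.79% of all genes fell. They were made for 125 of the 2259 falls, where 9.77% of all genes rose.

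Naive pluripotency genes moved both ways: 8 of 25 rose and 8 fell, against 5 and 10 without inhibitor and 1 and 12 with MEKi. Over all genes tested, 20.5% rose and 15.2% fell with PP1. Klf5, a factor of the naive network, was at 295, 261 and 284 CPM and rose to 617, 535 and 564, a change of 1.03 ± 0.07 against 1.09 without inhibitor and -0.85 with MEKi. Gbx2 (1.40 ± 0.25), Dppa2 (0.71 ± 0.08) and Zfp42 (0.51 ± 0.06) rose as well. Prdm14, a repressor that protects the naive state, fell from 51.8, 56.7 and 62.2 CPM to 16.6, 18.1 and 20.8. That change was -1.64 ± 0.11 (adjusted p = 1.5e-10), smaller in size than the -3.27 without inhibitor (interaction adjusted p = 7.3e-07) and larger than the -0.76 with MEKi (interaction adjusted p = 0.00024). Klf4 (-0.45 ± 0.07), Tbx3 (-0.38 ± 0.07) and Nanog (-0.46 ± 0.14, adjusted p = 0.021) fell by less than without inhibitor, where they changed by -1.01, -1.25 and -1.16. These calls depend on scaling: with library totals the list had 2 falls, and Klf4 (adjusted p = 0.13), Tbx3 (0.29) and Nanog (0.12) were not called. Nanog was at 399, 300 and 319 CPM with PP1 and at 238, 241 and 258 with PP1 and 4OHT, and its call was also lost without PP1 clone a (adjusted p = 0.064), PP1 and 4OHT clone a (0.097) or PP1 and 4OHT clone b (0.067). The interaction of Nanog (adjusted p = 0.024) was lost without 4OHT clone a (0.11), and without DMSO clone c (0.26), 4OHT clone c (0.14) and others. Of the core factors, Pou5f1 and Sox2 were not called (0.31 ± 0.27 and 0.03 ± 0.10). Dnmt3a, a DNA methyltransferase of the primed state, had -0.32 ± 0.11 with PP1 (adjusted p = 0.018, 0.48 with library totals, 0.052 and 0.15 without PP1 clones b and c, and 0.094 without PP1 and 4OHT clone c) and rose by 2.11 without inhibitor.

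Of 18 tested primitive endoderm genes, 9 fell and 2 rose with PP1 (median -0.85), against 7 and 2 without inhibitor (median -0.30) and 1 and 0 with MEKi (median -0.04). With library totals the falls numbered 4. Sorted by gene span into 4 equal sets, the longest set, in which 34.6% of all genes fell, held 9 of the 18 and 6 of the 9 falls, and 1 uncalled member is among the 14 high-count loci. The part of span in the list's count was not tested. Gata6, the lineage's first transcription factor, was at 3.57, 2.49 and 2.33 CPM with PP1 and 1.44, 0.777 and 1.32 with PP1 and 4OHT (-1.23 ± 0.36, adjusted p = 0.0097, and 0.052 with library totals or 0.054 without PP1 and 4OHT clone b). Col4a1, a basement membrane collagen read at 66.1, 51.5 and 59.4 CPM and then 36.9, 37.7 and 40.4, fell by 0.61 on the log2 scale. Gata4 (-0.26 ± 0.25) and Pdgfra (-0.75 ± 0.34) were not called, and the laminin gene Lamb1 (0.63 ± 0.10) and Sparc (0.61 ± 0.13, adjusted p = 0.0016, and 0.081 without clone b) rose.

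Genes of cholesterol synthesis rose together, 21 of 22 with 0 falls (median 0.76), and did so without inhibitor (17 rises, 1 fall, median 0.80) and with MEKi (20 rises, 0 falls, median 0.59). Lss, lanosterol synthase, went from 32.2, 32.9 and 30.8 CPM to 71.8, 84.1 and 84.5, a rise of 1.34 ± 0.13 (adjusted p = 7.9e-08). Idi1, an isomerase of the isoprenoid steps, rose by 1.24 ± 0.10. Hmgcs1 was at 151, 93.7 and 107 CPM and then 185, 220 and 235, a rise of 0.88 ± 0.20 (adjusted p = 0.0077) that was lost without clone b (adjusted p = 0.095), without clone c (0.081) and in the fit of the 6 libraries alone (0.07). Of 19 p53 targets, 12 rose and 1 fell (median 0.45), with 8 and 5 without inhibitor and 11 and 1 with MEKi. Cdkn1a, an inhibitor of cyclin-dependent kinases, rose by 0.65 ± 0.10, and Mdm2, the ligase that degrades p53, by 0.60 ± 0.07. Sesn1 fell by 0.55 on the log2 scale, a call lost with library totals (adjusted p = 0.15).

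Of 30 ribosome biogenesis genes 20 rose and 0 fell with PP1 (median 0.39), against 22 and 0 without inhibitor and 0 rises and 2 falls with MEKi (median -0.05). The PP1 response was higher than the MEKi response for 17 of the 30. Nop2, a methyltransferase of ribosomal RNA, was at 86.8, 65.4 and 71.4 CPM with PP1 and 118, 124 and 135 with PP1 and 4OHT (0.77 ± 0.09, adjusted p = 1.2e-06). NRF2 antioxidant genes gave 8 rises and 0 falls in 15 (3 rises with library totals), of which Sqstm1 (1.00 ± 0.08) and Srxn1 (0.93 ± 0.10) had risen by 2.84 and 3.87 without inhibitor. Of 26 genes of the RAF, MEK and ERK pathway itself, 10 rose and 1 fell, or 3 and 1 with library totals. Over all genes tested, 20.5% rose and 15.2% fell. Ksr1, a scaffold of the pathway, fell by 0.88 on the log2 scale.

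**Figure D4:**
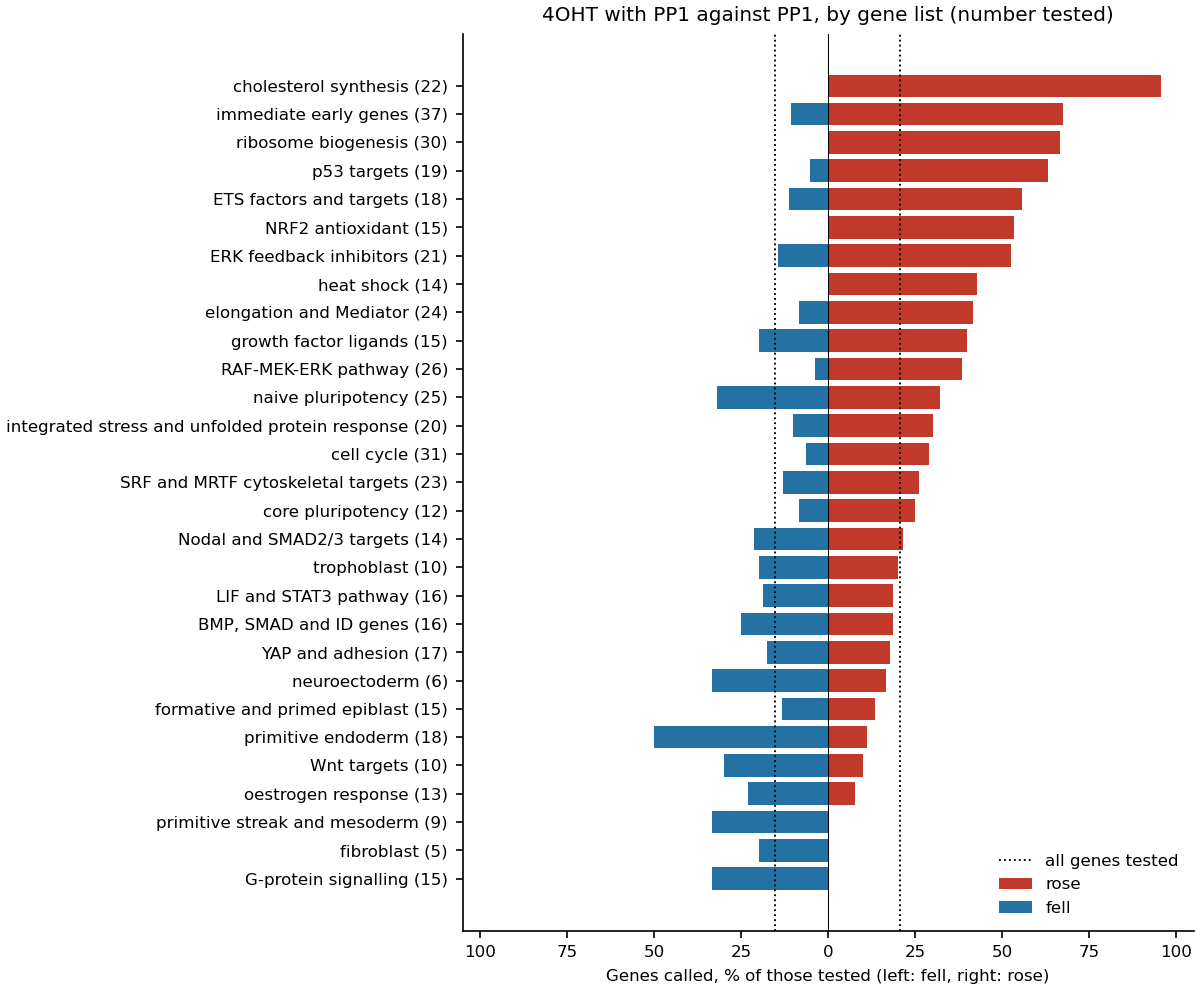
Share of each gene list called with PP1, in percent of the genes tested (number in brackets). Bars to the right rose and bars to the left fell, and dotted lines mark the shares over all genes, 20.5% and 15.2%. Cholesterol synthesis has the longest bar to the right and primitive endoderm the longest to the left.

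The 15 largest falls, among genes with an informative symbol and an average log2 CPM no lower than 1, were of genes with values under 21 CPM in each PP1 library. Hrh2, a histamine receptor, fell from 4.34, 3.19 and 4.41 CPM to 0.671, 0.583 and 0.927 (-2.46 ± 0.37, adjusted p = 1.5e-05). Vwf, von Willebrand factor, fell from 20.9, 19.0 and 16.4 CPM to 3.74, 4.86 and 5.43 (-1.995 ± 0.18). Hlf, a PAR bZIP transcription factor, fell by 1.94 ± 0.18 on the log2 scale, and Spic, an ETS factor, by 2.30 ± 0.31. The falls of Hrh2, Vwf, Hlf and Spic were called without inhibitor too, at -2.94, -2.60, -2.90 and -2.71, and none of the 4 was called with MEKi. Of all 2259 falls with PP1, 1576 (69.8%) were also called as falls without inhibitor, and 1678 were not called with MEKi. A background of reads per length of gene moved with the groups. Taking 1466 genes that span at least 150000 bases, its estimate (percentile 5 of their CPM per Mb) was 4.09 to 5.69 with PP1 and 1.67 to 2.43 with PP1 and 4OHT. Falls had a median span of 81474 bases, rises 21689, and all genes tested 27011. Of the genes sorted by span into 4 equal sets, 34.6% fell in the longest set and 4.68% in the shortest. The other responses to 4OHT had the same order. The longest set had a median log2 change of -0.268 with PP1, -0.21 without inhibitor and -0.169 with MEKi. The shortest set had 0.0862, 0.0979 and 0.0719. The drop in CPM was larger than the drop in background over the gene's span for 2236 of 2236 falls with a known span, and over 5 times as large for 1987 of them (88.9%). Among falls of at least 2-fold, 483 of 630 (76.7%) had a drop over 5 times that of the background. These genes were chosen as falls and the background is a low percentile, so such shares are high by construction. The part of background in the falls was not tested. For Hrh2 the drop was 3.25 CPM beside 0.11 for the background, and for Slc25a21, with 484839 bases, 2.74 beside 1.21. Slc25a21 (adjusted p = 0.027) lost its call under several alternatives, among them no replicate block (adjusted p = 0.051) and leaving out PP1 clones a (0.076) or c (0.1) or PP1 and 4OHT clones a (0.098) or c (0.07).

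**Figure D5:**
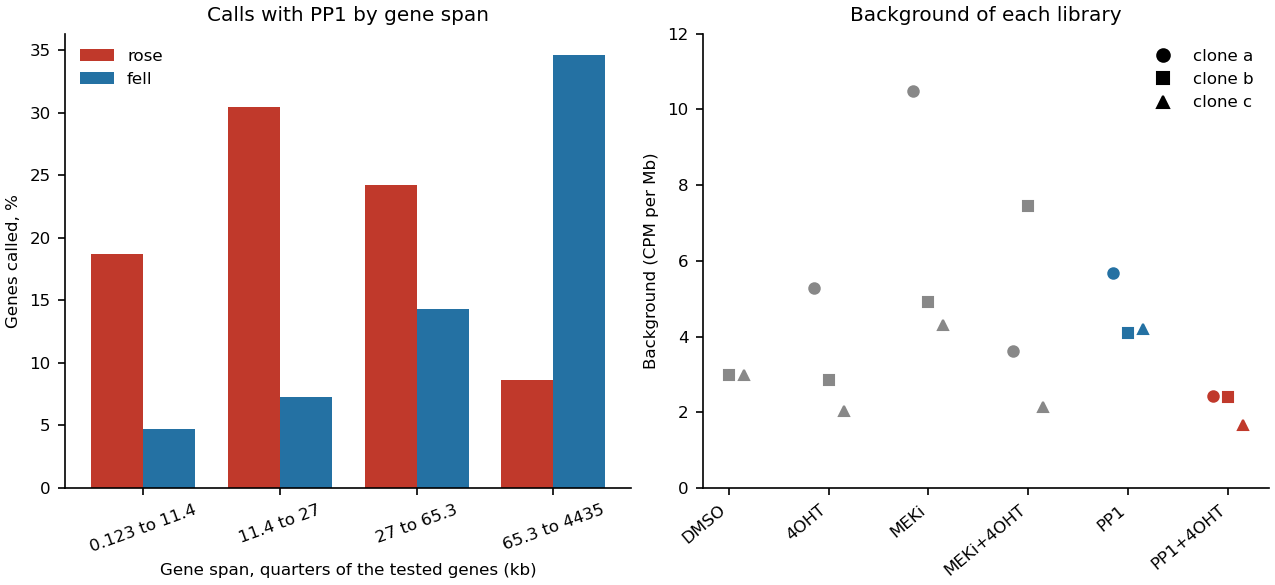
Left, share of tested genes that rose or fell with PP1 in 4 equal sets by gene span (kb), and right, background of each library in CPM per Mb. Falls reach 34.6% in the longest set, and the 3 PP1 libraries lie above the 3 libraries with PP1 and 4OHT.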

How the data were processed

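New RNA was measured in 17 libraries of 6 groups, with clones a, b and c. Per the labels' protocols, RNA labelled with ethynyl uridine was captured by click chemistry, and libraries were made with the NEB Next Ultra 2 kit. The authors deposited raw counts per gene, and the submitters' processing notes name STAR, featureCounts and mm10, with no version, annotation or strand setting stated there. Library totals ran from 5239690 to 11093390 counts, and 3 counts equal 0.287 to 0.765 CPM in the 6 libraries compared.

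Counts were fitted with edgeR 4.0.16 in R 4.3.3 (robust quasi-likelihood, TMM scaling, filterByExpr by group, prior count of 2 for CPM), with terms for 6 groups and a block for clone, which left 9 residual degrees of freedom and 14907 genes tested. Each SE is the size of the log2 change divided by the square root of its F value. The block follows the clone letters in the labels. Deviations from group means had a mean r of 0.0452 (-0.00301 to 0.0953) between PP1 and PP1 with 4OHT libraries of the same clone and -0.0228 between different clones. Over all groups it was 0.0859 within 40 same-clone pairs and -0.0425 within 80 others.

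Genes named were 41 chosen ones, the 15 largest called rises and falls (average log2 CPM of at least 1, same direction in 3 clones, informative symbols), up to 5 members of each of 30 lists by adjusted p with uncalled members where a list is described, and 5 genes in each direction of both interactions. Further list members were named after their values were seen. Results of some genes are not reported here. The members and lists were chosen with earlier results of these data known. Gene positions are from the mouse GENCODE release M21, in which 98.8% of 25899 symbols matched. Alternatives changed scaling, count filter, tool (DESeq2 1.42.0, limma-voom 3.58.1), the block, the libraries fitted and single libraries or clones left out, and the filter at an average log2 CPM of 3 was chosen after seeing the data.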

Additional observations from a re-analysis of the deposited data

Results flagged for a closer look

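Results are given here because the response to 4OHT with PP1 differed from another response by an interaction term at an adjusted p under 0.05, as log2 differences between responses. Against the response without inhibitor 4323 genes differed, and against the response with MEKi 2242.

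Relative to the response without inhibitor, the response with PP1 was lower for the phosphatases Dusp4 (-1.187) and Dusp5 (-2.504). It was lower for the early response genes Egr2 (-1.914), Egr3 (-5.96), Arc (-3.685), Fos (-2.107), Fosb (-3.524), Fosl1 (-2.752), Fosl2 (-4.55), Jun (-1.885), Junb (-1.896), Ier2 (-0.6601), Phlda1 (-3.58) and Nr4a1 (-1.279). Some naive pluripotency and FGF genes were less negative or more positive with PP1, with Nanog (0.6979), Klf4 (0.5687), Esrrb (0.6633), Tbx3 (0.8628), Prdm14 (1.631), Fgf4 (0.8616) and Fgf5 (1.465). Of the 25 tested naive pluripotency genes, 10 were called higher in this difference, 1 lower and 14 not called. Fgf5 was low, with means of 1.78 CPM with PP1 and 2.77 with PP1 and 4OHT. Among epiblast genes the differences were Otx2 (0.5089), Dnmt3a (-2.439) and Pou3f1 (-2.991). Pou3f1 had low means of 1.65 CPM with PP1 and 2.62 with PP1 and 4OHT, and Egr2 had 1.07 and 1.47. The genes with the smallest adjusted p in either direction were Plpp3 (2.084), St8sia1 (1.941), Ccdc85a (1.893), Slc7a7 (1.725) and Ablim1 (1.581) above, and Slc26a2 (-3.075), Twsg1 (-2.937), Lgals3 (-2.663) and Anxa7 (-2.382) below.

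Relative to the response with MEKi, feedback genes were higher with PP1, with Spry2 (2.004), Spry4 (7.509), Dusp4 (2.51), Dusp5 (2.459) and Dusp6 (3.781). Early response and ETS genes were higher too, with Egr1 (6.979), Arc (2.007), Fos (2.09), Fosb (2.966), Fosl1 (1.161), Fosl2 (1.875), Junb (1.184), Ier2 (0.5238), Myc (4.157), Etv4 (4.15), Etv5 (1.323), Phlda1 (3.469) and Nr4a1 (0.8228). Pluripotency and lineage genes differed both ways, with Nanog (-0.8097), Klf5 (1.877), Esrrb (0.4236), Prdm14 (-0.8772), Fgf4 (-0.7157), Fgf5 (2.035), Otx2 (0.7216) and Gata6 (-1.841). Of the genes with the smallest adjusted p, Slc7a7 (4.581), Enox1 (2.815), Adam23 (2.641) and Slc39a14 (3.293) were higher, and Ndrg1 (-2.158), Nova2 (-1.458), Hspb8 (-1.323), Dpysl5 (-1.278) and Adap1 (-1.191) were lower.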

How the results depend on the processing

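Of the 176 named genes called with PP1, 118 kept call and direction under each of the alternatives run, 58 lost the call under at least 1, and 0 reversed. These counts cover the PP1 response only and say nothing of the interaction values listed above. With library totals as the only scaling, 2482 genes were called with PP1, 518 of them at least 2-fold, and 524 differed from the MEKi response. A filter at an average log2 CPM of 3, which leaves out low genes by construction, gave 268 changes of at least 2-fold against 792. Leaving out single libraries or clones gave 3339 to 5734 calls with PP1, 564 to 871 of at least 2-fold, 3252 to 4798 differences from the uninhibited response and 1533 to 2868 from the MEKi response. Where a group was left with 1 library, it was assumed to vary like the other groups. The highest PP1 counts, 5734 and 871, came without PP1 clone a. With no replicate block, calls with PP1 numbered 4661, of which 678 at least 2-fold, and the differences 3943 and 1829. DESeq2 called 4721 and limma-voom 5374. Except where stated, the cause was not tested. The share of higher among differences from the uninhibited response was 57.6%, and 48.5% with DESeq2.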

Other observations

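Of 16 tested BMP, SMAD and ID genes, 3 rose and 4 fell with PP1, where 20.5% and 15.2% of all genes rose and fell, and with library totals 1 fell. Id1, an inhibitor of basic helix-loop-helix factors, was at 7.15, 6.07 and 5.02 CPM with PP1 and 15.3, 13.4 and 17.7 with PP1 and 4OHT, a rise of 1.39 ± 0.19. Id2, of the same family, fell from 51.8, 55.5 and 56.1 CPM to 22.4, 21.1 and 23.7 (-1.29 ± 0.13). Neither pair of groups overlapped. Smad7, an inhibitory SMAD, rose by 0.88 ± 0.08 with PP1 and fell by 0.80 with MEKi. Tfap2c, a trophoblast and germ cell factor, fell from 21.4, 24.2 and 23.5 CPM to 6.8, 11.1 and 10.5 (-1.28 ± 0.14).

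Among 24 genes of transcript elongation and Mediator 10 rose and 2 fell, where 20.5% and 15.2% of all genes did. With library totals 3 rose and 0 fell. Both falls are in the longest of 4 equal sets by gene span, and the list's Cdk8, 1 of the 14 high-count loci, was not called (-1.18 ± 0.64, adjusted p = 0.18). Of 15 genes of G-protein signalling 0 rose and 5 fell, where 20.5% and 15.2% of all genes did, with 1 fall with library totals. The longest set by span, in which 34.6% of all genes fell, held 8 of the 15 and 4 of the 5 falls. The part of span in this count was not tested. Heat shock genes gave 6 rises and 0 falls in 14, where 20.5% and 15.2% of all genes rose and fell. Their rises numbered 3 to 7 under the alternatives. Further from the pathway's own genes, Hs3st3b1, a heparan sulfate sulfotransferase, rose from 6.38, 9.75 and 11.5 CPM to 57.4, 47.2 and 50.2 (2.38 ± 0.15), and Pla2g7, a phospholipase, from 12.5, 10.2 and 13.6 to 56.2, 53.9 and 58.0 (2.23 ± 0.12).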
